A study of Mus musculus with 56 samples.

Results

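PU.1 sites lost after 1 hr of IL-4 are the genomic regions where PU.1 gave a ChIP-seq peak in both libraries of untreated mouse macrophages and in neither library of IL-4-treated macrophages. The 4 PU.1 peak lists were merged wherever peaks overlapped by at least 1 bp, which gave 107213 merged regions, of which 47009 had a peak in both ctrl lists. The lost sites were selected on these measured peak calls: 2496 regions met the rule, 2.33% of all merged regions and 5.31% of those with a peak in both ctrl lists. For comparison, 38796 regions had a peak in all 4 lists (kept sites), and 3853 had a peak in both IL-4 lists and neither ctrl list (gained sites). Just outside the rule lay 5717 regions with a peak in both ctrl lists and in a single IL-4 list, 2489 of them in IL-4 replicate 1 and 3228 in IL-4 replicate 2. A further 8913 regions had a peak in exactly 1 ctrl list and 1 IL-4 list. Disagreement between lists without regard to treatment thus occurred at many regions, and its part in the lost sites was not tested.

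The cells were bone marrow-derived macrophages (BMDMs) of wild-type mice on a C57BL/6 background, 8 to 12 weeks of age, grown from marrow for 6 days in medium conditioned by L929 cells, a source of macrophage colony-stimulating factor. The ctrl cells received no cytokine, and the 1hIL4 cells received IL-4 at 20 ng/ml for 1 hr. Each antibody was used on 2 libraries per group, for PU.1, p300, HDAC1, HDAC2, HDAC3, H3K27Ac, and RNA polymerase II phosphorylated at serine 5 (RNAPII-pS5) or serine 2 (RNAPII-pS2) of its tail. In a second experiment, RNAPII-pS5 and the NF-kB subunit p65 were profiled in 4 groups of 2 libraries: ctrl_ctrl, 24hIL4_ctrl (IL-4 at 20 ng/ml for 24 hr), ctrl_1hLPS (LPS at 100 ng/ml for 1 hr), and 24hIL4_1hLPS (IL-4 for 24 hr, then LPS for 1 hr). No genotype other than wild type entered these comparisons. In the ctrl libraries, 5 of 6 macrophage marker genes had an RNAPII-pS5 peak assigned to them in each replicate, with Adgre1 the exception, and their summed scores of 542.1 and 461.7 were above the 330 and 243.9 of 5 T cell markers, which lay highest of the other lists. Within 1000 bp of a start site, none of the neutrophil, fibroblast, and erythroid markers had an RNAPII-pS5 peak, whereas 3 and 4 of the 6 macrophage markers did, as did 1 of 5 T cell markers (Cd28) in both replicates and 1 of 5 B cell markers in replicate 1. H3K27Ac did not separate the lists in this way: within 1000 bp of a start site it summed to 132 and 127.5 over the macrophage markers, with a region at 1 of 6, and to 163.9 and 140.3 over the T cell markers. At any distance, the H3K27Ac sums were 1107 and 1089 for macrophage and 902.8 and 880.4 for B cell markers.

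PU.1 is an ETS-family transcription factor that recognizes a purine-rich DNA element built on GGAA, and it is required for macrophage development. It opens chromatin at macrophage enhancers together with partners such as C/EBP, AP-1, RUNX, and IRF proteins, and its genomic binding sites mark the repertoire of enhancers available to signal-dependent factors. IL-4 activates STAT6, which binds a palindromic element and drives alternative macrophage polarization. p300 is an acetyltransferase that deposits H3K27Ac, the histone mark of active enhancers and promoters, and HDAC1, HDAC2, and HDAC3 are deacetylases. RNAPII-pS5 marks the initiating polymerase at promoters and enhancers, and RNAPII-pS2 the elongating polymerase.

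The sequences of the strongest lost sites show what the lost windows contain. Each line gives 200 bases of the plus strand of GRCm38 (mm10) around the middle of the highest-scoring peak of the site, with GGAA and its reverse complement TTCC in capitals. These are 4 of the lost sites with the highest ctrl PU.1 scores, all outside repeats.
Tmem68 site, chr4:3450110-3450309: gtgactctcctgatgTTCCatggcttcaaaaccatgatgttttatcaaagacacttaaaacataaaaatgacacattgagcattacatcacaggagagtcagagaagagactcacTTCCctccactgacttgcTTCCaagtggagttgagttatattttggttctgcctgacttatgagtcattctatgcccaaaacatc
Tmem55b site, chr14:50929959-50930158: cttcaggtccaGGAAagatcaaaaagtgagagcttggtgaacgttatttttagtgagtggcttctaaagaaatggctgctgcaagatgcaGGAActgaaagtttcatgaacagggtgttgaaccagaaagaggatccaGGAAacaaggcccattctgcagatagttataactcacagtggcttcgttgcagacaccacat
Cdkn2aipnl site, chr11:51915656-51915855: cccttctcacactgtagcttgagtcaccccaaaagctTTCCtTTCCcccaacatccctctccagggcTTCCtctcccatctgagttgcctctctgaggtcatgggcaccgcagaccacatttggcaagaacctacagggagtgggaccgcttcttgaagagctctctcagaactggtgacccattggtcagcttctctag
Calcrl site, chr2:84358730-84358929: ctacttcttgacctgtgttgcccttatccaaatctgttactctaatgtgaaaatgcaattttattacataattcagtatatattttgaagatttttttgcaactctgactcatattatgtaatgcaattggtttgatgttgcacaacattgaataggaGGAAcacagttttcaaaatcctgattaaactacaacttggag

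The Tmem68 and Tmem55b windows each held 3 GGAA cores but no GAGGAA, the 6-base form closer to the PU.1 element, while the Cdkn2aipnl and Calcrl windows each held 1 GAGGAA. None of these 4 windows held the 8-base GAGGAAGT. The next line shows a lost site with a high ctrl score inside an L1 retrotransposon, the repeat family in which lost sites were most frequent, annotated as an L1Md_A element.
1700081H22Rik site, chr7:50367331-50367530: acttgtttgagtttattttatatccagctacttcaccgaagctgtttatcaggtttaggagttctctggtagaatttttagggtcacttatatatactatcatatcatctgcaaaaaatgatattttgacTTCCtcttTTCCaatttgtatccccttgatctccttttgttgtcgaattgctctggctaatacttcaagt

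This L1 window held 2 GGAA cores, 1 of them within a GAGGAAGT. The next set shows lost sites annotated to genes of the pathway lists, the NF-kB regulator Nfkbiz, the deacetylase Hdac9, and the corepressor subunit Tbl1xr1.
Nfkbiz site, chr16:55790418-55790617: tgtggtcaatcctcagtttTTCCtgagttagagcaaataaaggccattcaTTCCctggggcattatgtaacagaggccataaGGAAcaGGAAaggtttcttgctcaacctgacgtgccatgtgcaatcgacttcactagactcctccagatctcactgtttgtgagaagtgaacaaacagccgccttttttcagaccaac
Hdac9 site, chr12:34591860-34592059: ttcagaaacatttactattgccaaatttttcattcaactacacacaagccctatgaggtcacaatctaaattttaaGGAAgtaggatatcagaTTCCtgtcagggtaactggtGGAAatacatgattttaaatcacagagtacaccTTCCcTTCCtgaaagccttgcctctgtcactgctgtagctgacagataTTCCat
Tbl1xr1 site, chr3:22010628-22010827: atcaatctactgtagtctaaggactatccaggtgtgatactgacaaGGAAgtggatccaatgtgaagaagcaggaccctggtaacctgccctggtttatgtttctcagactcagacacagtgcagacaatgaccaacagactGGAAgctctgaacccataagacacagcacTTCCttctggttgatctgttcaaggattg

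The last pair were lost sites where 3 other antibodies also had a peak in both ctrl lists and in neither IL-4 list, near Mef2c and Gm13498.
Mef2c site, chr13:83064900-83065099: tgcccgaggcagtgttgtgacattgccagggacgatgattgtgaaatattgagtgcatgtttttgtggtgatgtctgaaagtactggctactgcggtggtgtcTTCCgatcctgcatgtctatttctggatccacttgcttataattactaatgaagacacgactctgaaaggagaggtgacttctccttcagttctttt
Gm13498 site, chr2:50793671-50793870: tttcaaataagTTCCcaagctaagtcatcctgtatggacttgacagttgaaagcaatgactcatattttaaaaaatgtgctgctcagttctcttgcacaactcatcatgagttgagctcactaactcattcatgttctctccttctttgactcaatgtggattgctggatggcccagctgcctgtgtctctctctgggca

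Both windows held a single GGAA core and no GAGGAA. Across all 2496 lost windows, 96.4% held at least 1 GGAA core, which is short enough to occur in 97.1% of the windows of all merged PU.1 regions. GAGGAA occurred in 49.1% of lost windows, 61.4% of kept windows, 50.7% of gained windows, and 50.1% of all merged windows. The 8-base GAGGAAGT, which contains GAGGAA and GGAA, occurred in 22.4% of lost, 29.7% of kept, 16.5% of gained, and 21.1% of all merged windows. Within LINEs this element was much more frequent, at 43.7% of lost and 73.1% of kept windows, and outside repeats it occurred in 10% of lost and 19.2% of kept windows. The lost windows thus held the PU.1 element less often than the kept windows in both settings, as a description with no test.

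The STAT6-type palindrome, TTC and GAA separated by 4 free bases, had the widest range between the groups of sites, in percentage points and in ratio, of the motifs searched. It occurred in 47 lost windows (1.88%), against 6.09% of kept windows, 21.1% of gained windows, and 5.87% of all merged windows. Outside repeats, the share was 3.30% of lost windows and 7.68% of kept windows. The related STAT element TTCNNNGAA, with a spacer of 3 bases, occurred in 16.3% of lost and 16.0% of kept windows, and in 36.8% of lost and 51.0% of kept LINE windows. Elements of the PU.1 partners were found at slightly lower shares in lost than in kept windows when all sites were compared, with AP-1 (TGANTCA) at 9.58% and 11.0%, C/EBP (TTNNGCAA) at 10.1% and 11.4%, RUNX (TGTGGTT) at 5.41% and 6.51%, and the PU.1-IRF composite (GGAA and GAAA separated by 2 bases, which contains the ETS core) at 5.69% and 8.46%. The IRF element (GAAA repeated after 2 free bases, which can share bases with the composite) was found in 3.57% and 5.15%, the SP/KLF element (GGGCGG) in 4.29% and 3.7%, and the E-box (CACGTG) in 1.84% and 2.39%. The order depended on the sites compared. Outside repeats AP-1 was found in 16.2% of lost and 13.6% of kept windows, and C/EBP in 13.9% and 13.6%. Among sites with a lower ctrl score under 5, the shares in lost and kept windows were 8.57% and 7.8% for AP-1, 9.69% and 8.48% for C/EBP, 5.43% and 4.41% for RUNX, and 5.75% and 5.2% for the PU.1-IRF composite, while GAGGAAGT (21.1% and 41.1%) and the STAT6-type palindrome (1.81% and 5.8%) kept their order. Median GC content was 40.5% in lost, 43.5% in kept, and 41.5% in gained windows. A match is a run of letters in the window on either strand and does not show binding.

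**Figure D1:**
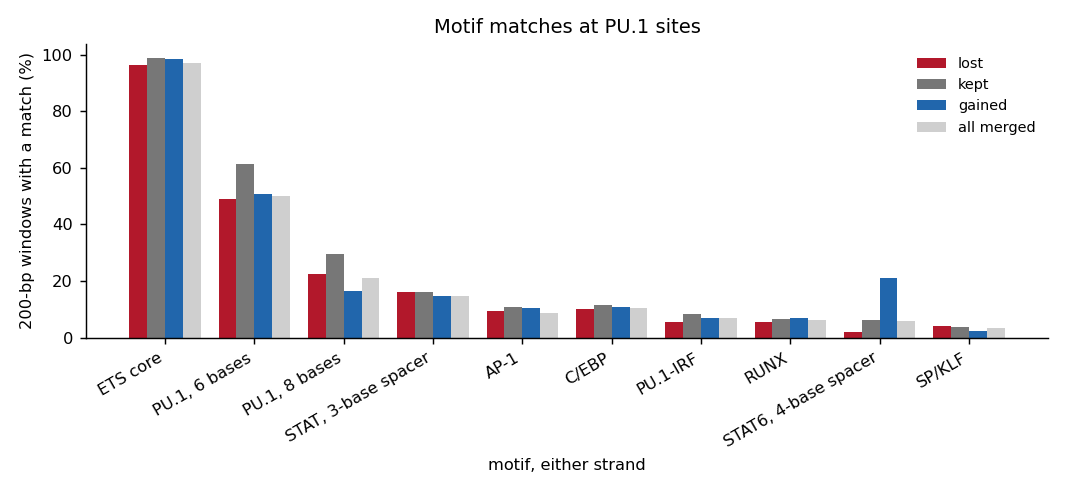
Share of 200-bp windows with at least 1 match to each motif on either strand, as bars for lost (2496), kept (38796), gained (3853), and all merged (107213) PU.1 sites. The 4-base-spacer STAT6 element stood at 1.88% in lost and 21.1% in gained windows, and the PU.1 elements were highest in kept windows.

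The lost sites were weak PU.1 peaks in the ctrl lists. The score of a peak was taken as minus log10 of the peak caller's p or q value. The lower of the 2 ctrl scores had a median of 3.94 at lost sites, from 1.3 to 16.93, against 9.63 at kept sites. Lost regions were also narrower, with a median width of 262 bp against 421 bp for kept regions and 273 bp for gained regions. Only 618 lost sites (24.8%) had both ctrl scores at 5 or above, and 14 (0.561%) had both at 10 or above. The share of ctrl sites that were lost was 21.1% where the lower ctrl score was under 3 and 14.4% between 3 and 5. It was 5.39% between 5 and 7, 1.76% between 7 and 10, and 0.216% between 10 and 15, and none of 9681 sites at 20 or above was lost. These scores entered the rule and are given as a description. With a score of at least 5 required in all 4 lists, 1482 of 34902 sites met the rule (4.25%), and with that score required in the ctrl lists alone, 618 did (1.77%).

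**Figure D2:**
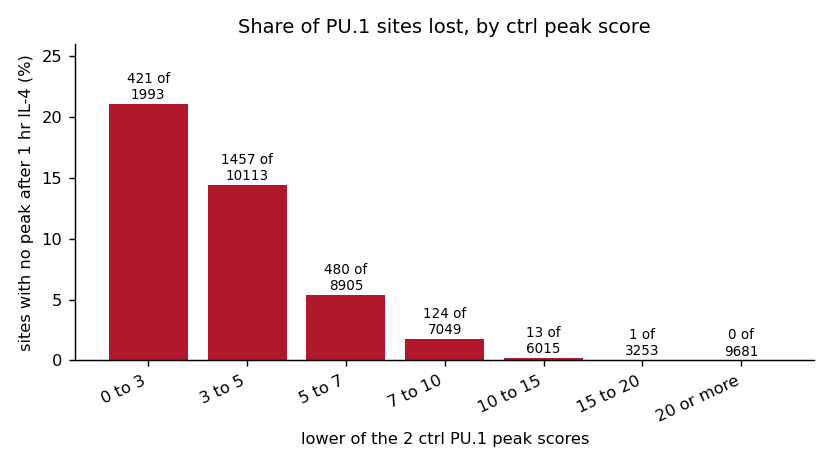
Share of PU.1 sites with a peak in both ctrl lists that had no peak in either IL-4 list, in bins of the lower ctrl score (minus log10 scale), with the number lost of the number in the bin above each bar. The share falls from 21.1% under a score of 3 to 0 of 9681 at 20 or above.

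The strongest lost site lay in an intergenic region 124559 bp from the start of Tmem68 (chr4:3450058-3450360), with PU.1 scores of 16.93 and 26.43 in ctrl replicates 1 and 2. The second lay in an intron of Tmem55b, 791 bp from its start (chr14:50929908-50930208), with scores of 18.63 and 13.47. Next came an intergenic site near Cdkn2aipnl (chr11:51915642-51915891, 12.27 and 12.84) and a Calcrl intron (chr2:84358657-84359036, 12.17 and 14.64), Calcrl being the calcitonin receptor-like receptor. At 2 promoters among the 12 strongest, those of the calcium-binding protein S100a11 (chr3:93520168-93520413) and of 2210018M11Rik (chr7:98656659-98656950), the ctrl scores were 12.17 and 13.36, and 15.51 and 11.25. A further 5 were in a Slc23a2 intron and near or in 2610017I09Rik, 1500015O10Rik, Fat3, and 1700081H22Rik, where the lower ctrl score was between 10.39 and 12.09. Of these 5, 3 lay in annotated repeats: a GAA simple repeat near 2610017I09Rik, the L1 element in 1700081H22Rik, and an MTC element in Fat3.

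Lost sites lay farther from genes than kept or gained sites. They were intergenic in 59.3% (1481 sites), against 47.3% of kept and 44.1% of gained sites, and in introns in 32.5% (811 sites), against 44.1% and 48.4%. Promoters held 127 lost sites (5.09%), a share close to the 5.37% of kept sites. A distance of over 100 kb from the nearest start site was found for 30.8% of lost, 18.3% of kept, and 17.4% of gained sites. The median distance of a lost site from the nearest kept PU.1 site was 12820 bp, and 45.7% had a kept site within 10 kb, against 55.4% of gained sites. The lost sites were spread over 2053 nearest genes, 1729 of which had a single lost site.

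Long interspersed elements (LINEs) held 923 lost sites, 37.0%, against 19.7% of kept sites, 13.9% of gained sites, and 28.1% of all merged regions. Simple and low-complexity repeats held 7.37% of lost and 3.46% of kept sites, and LTR elements 7.97% and 7.82%. CpG islands held 16 lost sites, 0.641% against 0.147% of kept sites. Among sites with a peak in both ctrl lists, 8.45% of those in LINEs and 10.1% of those in simple or low-complexity repeats were lost, against 3.8% of those outside repeats. At matched ctrl scores the LINE gap was smaller in some bins: between scores of 3 and 5 the lost share was 13.9% in LINEs and 13.3% outside repeats, between 5 and 7 it was 4.66% and 5.23%, and under 3 it was 26.5% and 16.8%. In simple and low-complexity repeats, 24.4% were lost between 3 and 5 and 11.9% between 5 and 7. How reads matching several places in the genome were handled is not given in the sources used here.

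**Figure D3:**
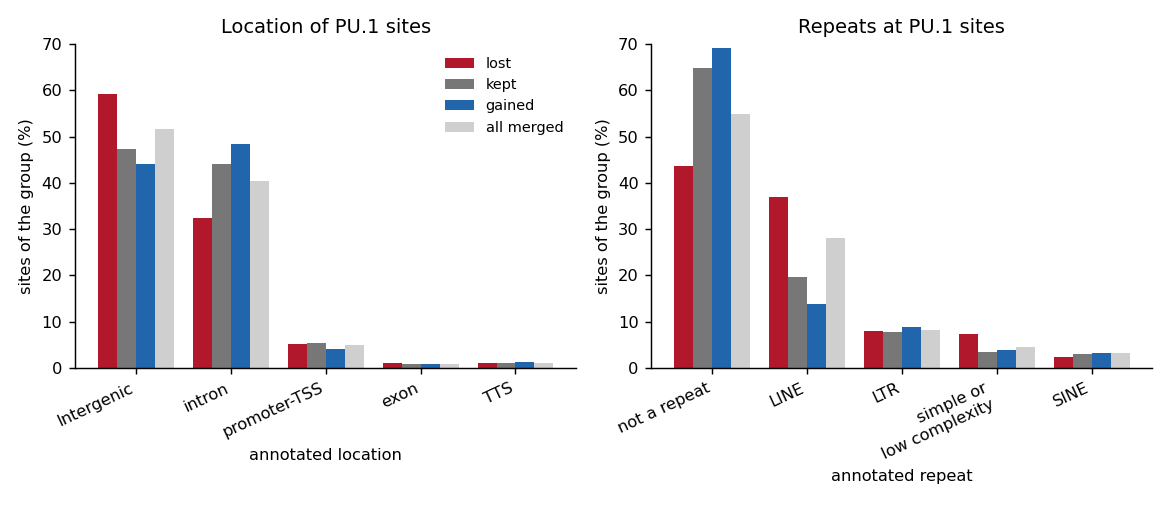
Share of lost, kept, gained, and all merged PU.1 sites by annotated location (left) and annotated repeat (right), in percent of the sites of each group. Lost sites have the tallest intergenic (59.3%) and LINE (37.0%) bars.

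Within LINEs, the young L1Md_T elements held most lost sites, 429 of 4336 ctrl sites (9.89%), followed by L1Md_A with 161 of 3225 (4.99%). L1Md_F2 lost 95 of its 316 ctrl sites (30.1%) and L1Md_F3 42 of 146 (28.8%), so the share lost ranged from 4.99% to 30.1% among these 4 subfamilies. These counts are descriptions, because copies of a subfamily share sequence. The Y chromosome lost 74 of 477 ctrl sites (15.5%) and the X chromosome 136 of 1714 (7.93%), against 3.88% to 5.89% on the autosomes. Of the lost Y sites 81.1% were in LINEs, and 60.8% of the kept Y sites were. Among genes, Gm20871, annotated as a Y-linked Sycp3-like pseudogene, had 10 lost sites, the most of any gene, and the predicted genes Gm20736, Gm20822, and Gm20738 had 9, 8, and 7. Erdr1 and Tbc1d9, a GTPase-activating protein family member, had 6 each.

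Lost sites outside repeats mostly carried other regulatory marks, and those in LINEs mostly did not. At 1423 lost sites (57%) none of p300, HDAC1, HDAC2, HDAC3, H3K27Ac, and RNAPII-pS5 had a peak in any of its 4 lists, and at 1073 (43.0%) at least 1 of them did. Outside repeats, 75.3% of 1090 lost sites had a peak of another antibody. In LINEs the share was 6.50% of 923 sites, and in simple or low-complexity repeats it was 13.6% of 184. LTR elements lay between, with 49.7% of 199 sites, as did SINEs, with 60.0% of 60 sites. A p300 peak was present at 69.7% of the lost sites outside repeats and at 6.28% of those in LINEs. On the Y chromosome, 1 of the 74 lost sites had a peak of another antibody. Shares by repeat class are not given for kept sites, so whether this pattern is particular to lost sites was not tested.

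p300 was the mark most often found at lost sites, as it was at kept sites. Its score was called lower after IL-4 at a larger share of lost sites than of all p300 regions. A p300 peak overlapped 24.2% and 37.1% of lost sites in ctrl replicates 1 and 2, and 33.1% and 34.1% in IL-4 replicates 1 and 2. Kept sites had one more often, at 62.4% and 74.1% in ctrl and 74.1% and 74.3% after IL-4. The list of ctrl replicate 1 stood apart, with 44787 peaks against 66710 to 69360 in the others and a median score of 12.2 against 34.2 to 38.5 over the regions shared by all 4 lists, so scores were centred on those regions before they were compared. Of 896 lost sites that overlapped a tested p300 region, 191 (21.3%) lay in a region called lower after IL-4 and 22 (2.46%) in one called higher, by limma at an adjusted p of at most 0.05. Over all 67229 tested p300 regions, 7.44% were called lower and 13.6% higher. The median log2 change at lost sites was -0.39, against 0.11 over all regions, 0.02 at kept sites, and 1.66 at gained sites. Without ctrl replicate 1, 172 of 886 lost sites were called lower and 18 higher, against 6.8% and 15.6% of all regions, with a median of -0.51. Without IL-4 replicate 1 or 2, 122 and 124 lost sites were called lower, against 5.09% and 6.1% of all regions, and 6 and 5 higher. Without ctrl replicate 2, 218 were lower and 88 (10.7%) higher, against 13.6% and 22.9% of all regions. With no centring, none of the 67229 p300 regions was called, at lost sites or elsewhere. The median at lost sites was then 0.28, below the 0.78 of all regions. Peaks were seldom missing altogether: 8 of the 998 p300 regions over lost sites (0.802%) had a peak in both ctrl lists and neither IL-4 list, against 0.849% of all p300 regions, and 17 (1.7%) had the reverse, against 9.1%.

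Single sites show how the p300 score changed. Because the score is taken as a significance value, its log2 change is not a fold of p300 binding. At the Calcrl intron site, p300 scored 27.67 and 106.56 in ctrl and 14.97 and 16.45 after IL-4. The centred score fell by 2.46 on the log2 scale (SE 0.28, limma adjusted p = 2.32e-08). At the Tmem68 site the scores were 15.04 and 35.95 in ctrl, with no peak in IL-4 replicate 1 and 7.44 in replicate 2 (log2 change -3.55, SE 0.73, limma adjusted p = 0.000428). Both ctrl values lay above both IL-4 values at these sites. In the p300 region over the Cdkn2aipnl site the ctrl scores were 14.59 and 34.58 and the IL-4 scores 13.08 and 11.95, close to each other for ctrl replicate 1 before centring, and the centred change was -1.52 (SE 0.40, limma adjusted p = 0.0051). The largest decreases were in an intron of the class IIa deacetylase gene Hdac4 (chr1:92048463-92048828), where p300 scored 20.49 and 47.47 in ctrl and 6 in a single IL-4 list (log2 change -4.13, limma adjusted p = 1.91e-05), and near the deubiquitinase gene Otud1 (chr2:19706890-19707089), where scores of 8.66 and 26.86 were followed by no peak in either IL-4 list (-4.18, limma adjusted p = 0.000871). In the opposite direction, a lost PU.1 site near the adaptor gene Grb2 (chr11:115722586-115722852) had no p300 peak in ctrl and scores of 33 and 27.09 after IL-4 (log2 change 3.81, limma adjusted p = 0.000752), and a Macf1 intron (chr4:123649916-123650191) went from no peak and 2.56 to 11.8 and 19.63 (2.37, limma adjusted p = 0.0495). Where a list had no peak the lowest score of the antibody stood in, so the log2 changes of such sites depend on that value.

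**Figure D4:**
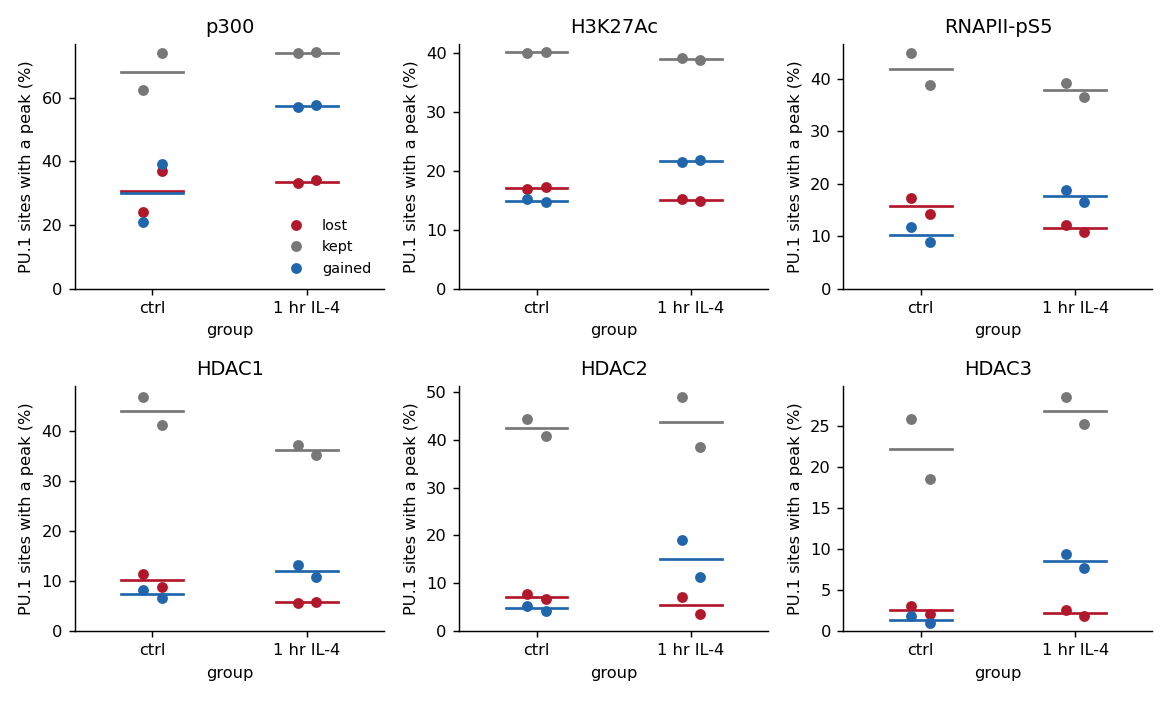
Share of lost, kept, and gained PU.1 sites that overlapped a peak of each antibody, with 1 point per library and a line at the mean of the 2 libraries of a group. At lost sites H3K27Ac, HDAC1, and RNAPII-pS5 points are lower in both IL-4 libraries than in both ctrl libraries, while at gained sites all 6 antibodies are higher after IL-4. H3K27Ac and HDAC1 points are lower after IL-4 at kept sites as well.

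H3K27Ac, measured in regions of about 1 kb, overlapped 16.9% and 17.2% of lost sites in ctrl and 15.2% and 14.9% after IL-4. The ctrl libraries lay above the IL-4 libraries, as they did at kept sites (40.1% and 40.3%, then 39.2% and 38.9%). The ctrl lists were also longer, with 27750 and 27797 regions against 26995 and 26982. Of 437 lost sites in a tested region, 153 (35.0%) were called lower and 41 (9.38%) higher by limma at an adjusted p of at most 0.05, against 22.8% lower and 20.7% higher over all 28929 regions and 30.8% and 21.7% at kept sites. The sign of the median depended on the floor, the score given to missing regions. With a floor 4 times as high, measured scores below it were raised to it as well. A region at or below that floor in every list then differed between groups by the centring alone, so its sign shows no change. In that fit 124 lost sites were called lower and 188 higher, with a median of 0.05. Over all 28929 regions that fit called 5650 lower and 14461 higher, with the same median of 0.05. The median log2 change was -0.25 at lost sites, -0.02 over all regions, -0.12 at kept sites, and 0.61 at gained sites. The H3K27Ac replicates of a group differed by only 1.15 (ctrl) and 1.10 (IL-4) times the counting noise, judged from the value of 1 tag in each list, while a ctrl and an IL-4 list differed by 3.18 times, so these p-values may reflect mainly technical spread. The caller places such regions a minimum distance apart, so a region may shift rather than vanish. With all H3K27Ac scores within 2500 bp summed, the 597 lost sites with a region in every list had a median log2 change of -0.30, and 73.9% of them were lower after IL-4, against 62.5% of kept and 30.2% of gained sites. At an intron site of the retinoic acid receptor gene Rara (chr11:98942532-98942802), the ctrl scores were 449.1 and 439.6 and the nearest IL-4 regions lay 16855 and 16821 bp away (limma adjusted p = 4.65e-05). At an intron site of the cannabinoid receptor gene Cnr2 (chr4:135898378-135898676), called with the same adjusted p, the ctrl scores of 420.5 and 405.2 faced IL-4 regions only 1487 and 1524 bp away that scored 533.4 and 519.7. Sites called higher were the promoters of Atxn7l3 (chr11:102296808-102297010), with no overlapping region in ctrl and 237.1 and 245.1 after IL-4, and of Rgag4 (chrX:102071284-102071504), with 55.3 and 46.2 after IL-4, and ctrl regions lay 599 and 512 bp from the first and 3004 and 2994 bp from the second. At the Tmem55b site, where PU.1 was lost, H3K27Ac rose from 368.7 and 359 to 637.4 and 646 (log2 change 0.87, SE 0.03, limma adjusted p = 0.000329).

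RNAPII-pS5 peaks were found at fewer lost sites after IL-4, at 17.2% and 14.3% in ctrl and 12.1% and 10.8% after IL-4, from lists of 35424 and 30639 peaks in ctrl and 31883 and 30420 after IL-4. At kept sites the shares were 44.8% and 38.7% in ctrl and 39.1% and 36.5% after IL-4. Of the 469 RNAPII-pS5 regions that overlapped lost sites, 40 (8.53%) had a peak in both ctrl lists and neither IL-4 list, against 4.96% of all RNAPII-pS5 regions, and none had the reverse, against 3.43%. In limma, 3 of 384 lost sites were called lower and 1 higher at an adjusted p of at most 0.05, against 0.268% and 1.09% of all 32095 regions. At an unadjusted p of at most 0.05, 63 (16.4%) were lower and 25 (6.51%) higher, against 10.5% and 11.5%. The median log2 change was -0.13, against 0.02 over all regions and -0.09 at kept sites. It was 0.02 where only regions with a peak in every list were tested, against 0.04 over all those regions. The call with the largest decrease lay near Scrg1 (chr8:57432770-57433107), with scores of 17.74 and 19.74 in ctrl and no peak after IL-4 (limma adjusted p = 0.0298), where p300 also fell by 1.47 on the log2 scale (limma adjusted p = 0.000305). The next, intergenic and nearest to Mef2c (chr13:83064847-83065151), had 13.67 and 12.13 in ctrl and no peak after IL-4 (limma adjusted p = 0.0493), and the Cnr2 site was the other, at 63.19 and 37.14 and then 15.6 and 12.14 (limma adjusted p = 0.0176). These calls depended on the libraries: with any 1 library left out, more regions were called, both at lost sites and over all regions. The median at lost sites was then -0.117 to -0.0436, against 0.0144 to 0.0402 over all regions. RNAPII-pS5 rose at the promoter of Sdhb, a subunit of succinate dehydrogenase (chr4:140961135-140961409), from 26.7 and 19.63 to 51.39 and 45.18 (log2 change 1.19, SE 0.20, limma adjusted p = 0.029).

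The deacetylases had peaks at few lost sites. HDAC1 peaks overlapped 11.3% and 8.81% of lost sites in ctrl and 5.61% and 5.77% after IL-4, HDAC2 peaks 7.73% and 6.57% and then 7.17% and 3.45%, and HDAC3 peaks 3.04% and 2.04% and then 2.52% and 1.76%. The HDAC1 groups did not overlap, whereas those of HDAC2 and HDAC3 did. Kept sites also moved for HDAC1, from 46.8% and 41.1% to 37.2% and 35.1%, and the HDAC1 lists held fewer peaks after IL-4 (23270 and 22340, against 30511 and 26836). Of the HDAC1 regions over lost sites, 48 of 385 (12.5%) had a peak in both ctrl lists and neither IL-4 list, against 7.24% of all HDAC1 regions, and 2 (0.519%) the reverse, against 2.04%. For HDAC2 these were 27 of 337 (8.01%, against 3.04%) and 7 (2.08%, against 5.0%), and for HDAC3 7 of 118 (5.93%, against 1.89%) and 2 (1.69%, against 8.92%). For H3K27Ac they were 31 of 479 (6.47%, against 4.66%) and 5 (1.04%, against 4.05%).

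By limma, no lost site lay in an HDAC1, HDAC2, or HDAC3 region called at an adjusted p of at most 0.05 in either direction. Over all regions the calls were 0.0% lower and 0.0% higher for HDAC1, 0.0% and 0.00404% for HDAC2, and 0.103% and 1.22% for HDAC3. At an unadjusted p of at most 0.05, 38 of 244 lost sites were lower for HDAC1 and 2 higher, against 8.48% and 4.65% of all regions. For HDAC2 the counts were 20 and 3 of 187, against 5.06% and 6.34%, and for HDAC3 10 and 2 of 64, against 6.03% and 12.6%. The median log2 changes were -0.24 for HDAC1, -0.26 for HDAC2, and -0.56 for HDAC3, against -0.10, -0.01, and 0.09 over all regions. The HDAC1 median was -0.02 where only regions with a peak in every list were tested, against 0.006 over all those regions. With a floor 4 times as high it was 0.18, against 0.19 over all regions. The HDAC2 median was 0.04 without IL-4 replicate 2, against 0.16 over all regions, so its sign changed but it stayed below all regions. The HDAC1 region with the smallest p among the lower ones, in a Gm3833 intron (chr14:10368217-10368446), scored 9.58 and 10.72 in ctrl and had no peak after IL-4 (limma adjusted p = 0.378). Its counterparts were a Ralgps1 intron for HDAC2 (6.46 and 7.69 in ctrl, limma adjusted p = 0.43) and the site near Gm13498 for HDAC3 (10.6 and 7.92 in ctrl, limma adjusted p = 0.143). The HDAC3 antibody is listed under the same catalogue number as the H3K27Ac antibody in the labels, whereas the study's list of reagents gives a separate HDAC3 antibody.

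**Figure D5:**
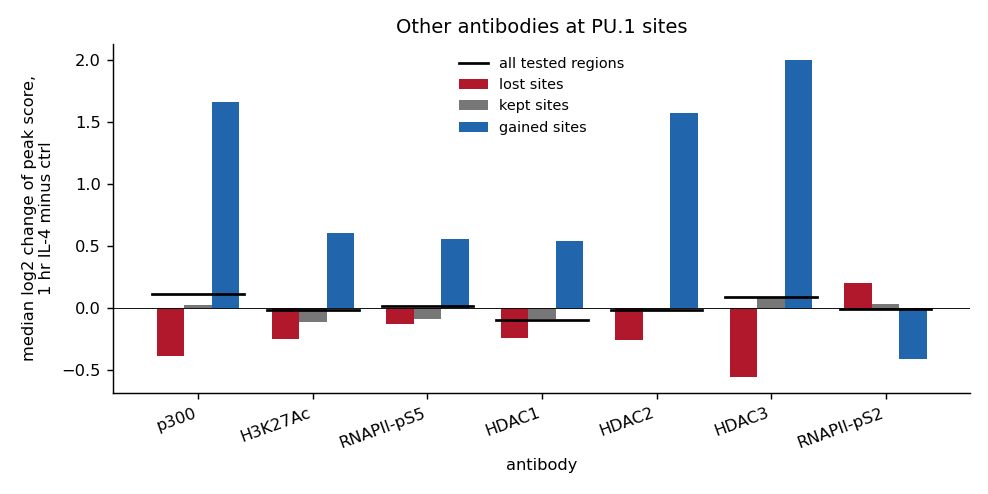
Median log2 change of the centred peak score (1 hr IL-4 minus ctrl, 2 libraries per group) over lost, kept, and gained PU.1 sites that overlapped a tested region of each antibody, with a black line at the median over all tested regions. At lost sites the bar is below that line for p300 (-0.39 against 0.11), H3K27Ac, RNAPII-pS5, and the 3 HDACs, and above it for RNAPII-pS2 as labelled.

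RNAPII-pS2 peaks overlapped 4.97% and 6.49% of lost sites in the libraries labelled ctrl and 6.57% and 7.33% in those labelled 1hIL4. The median log2 change was 0.20 at lost sites and -0.41 at gained sites, against -0.01 over all 18314 regions. Of 192 lost sites, 2 were called lower and 12 higher by limma at an adjusted p of at most 0.05, against 1.69% and 1.21% of all regions. A replicate block left 0 lower and 1 higher, against 32 and 25 over all regions. The fit with no centring called no region, at lost sites or elsewhere. Calls remained with a peak required in every list (2 lower and 8 higher, against 192 and 217 over all 9972 regions). They also remained with a floor 4 times as high (5 and 13, against 314 and 306) and with no filter (4 and 15, against 565 and 486 of 26494). The peak names inside these 4 lists carry the opposite treatment to their labels, and with the names in place of the labels every RNAPII-pS2 direction would be opposite. The labels were kept here.

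Read over the PU.1 site itself, at 6 lost sites 3 of the 6 other antibodies had a peak in both ctrl lists and in neither IL-4 list, at 17 sites 2 of them did, and at 132 sites 1 did. For peaks in both IL-4 lists and neither ctrl list, these numbers were 0, 1, and 33. Such counts are not given for kept sites, so the contrast is not read as particular to lost sites. Over whole regions at kept sites, ctrl-only shares exceeded IL-4-only shares for HDAC1 (7.03% and 1.73%), RNAPII-pS5 (5.47% and 2.58%), and H3K27Ac (3.95% and 3.09%). The reverse held there for p300 (0.16% and 2.36%), HDAC2 (2.76% and 4.04%), and HDAC3 (1.71% and 7.87%). Near Mef2c, a transcription factor gene, HDAC1 (3.37 and 3.73), HDAC2 (5.46 and 6.74), and RNAPII-pS5 were lost with PU.1, while p300 had peaks of 33.72 and 70.33 in ctrl and 31.48 and 50.1 after IL-4 (limma adjusted p = 0.00607). Near Gm13498 (chr2:50793656-50794011), HDAC1 (6.47 and 6.76), HDAC3 (10.6 and 7.92), and RNAPII-pS5 (15.65 and 9.93) had no peak after IL-4, and p300 went from 53.91 and 141.73 to 47.04 and 69.95. Before centring, the ctrl and IL-4 p300 scores overlapped near Mef2c and near Gm13498. An intron of 9330111N05Rik (chr13:81108461-81108841) and a site near Etv1 (chr12:38904492-38904752), an ETS-family gene, lacked HDAC1, HDAC2, and RNAPII-pS5 after IL-4, and a site near Casd1 (chr6:4587974-4588346) lacked HDAC1, H3K27Ac, and RNAPII-pS5. The sixth, in an intron of G630071F17Rik (chr18:60667009-60667258), lacked HDAC1, HDAC2, and H3K27Ac. At all 6, p300 had a peak in every list.

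Few lost sites lay nearest to genes of the macrophage pathway lists. Over the 10 pathway lists, 1.80% (lipid sensing and cholesterol efflux) to 6.25% (inflammasome) of the ctrl PU.1 sites annotated to list genes were lost, against 5.31% for all genes. The inflammasome, NF-kB (5.65%), and macrophage lineage (5.58%) lists lay above that share, and the other lists below it. For genes of alternative activation and the IL-4 response, 5 sites at Bcl6, Irf4, Klf4, and Ppargc1b were lost (2.35% of ctrl sites), while 42 were gained at 17 genes. The list held 0.2% of lost, 0.497% of kept, and 1.09% of gained sites. The 625 genes of the IL-4-repressed RNA-seq group were nearest to 186 lost sites at 140 genes (7.45% of lost, 7.62% of kept, and 4.46% of gained sites), and 5.29% of their ctrl sites were lost. For the 4 IL-4-induced groups the lost share of ctrl sites was 1.63% to 3.85%.

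Single sites near these genes varied in what accompanied the loss. The NF-kB regulator gene Nfkbiz had 3 lost sites, and at the strongest (chr16:55790317-55790661, PU.1 9.91 and 10.85) p300 fell from 17.51 and 53.52 to 11.15 and 9.35 (log2 change -2.25, SE 0.38, limma adjusted p = 2.83e-05), and RNAPII-pS5 went from 4.12 and 5.41 to no peak (limma adjusted p = 0.224). At an intergenic site nearest to Irf8 (chr8:120716127-120716371), a lineage factor that binds DNA with PU.1, p300 fell by 1.23 (30.94 and 75.76 to 29.26 and 36.7, limma adjusted p = 0.000314). Before centring, the ctrl and IL-4 scores overlapped at the Irf8 site. Near Batf, an AP-1 family gene (chr12:85659900-85660129), p300 fell by 0.91 (limma adjusted p = 0.00701) and H3K27Ac fell by 0.72 (29.8 and 29.7 to 20.2 and 14.9, limma adjusted p = 0.0424). Near the lysozyme gene Lyz2 (chr10:117276210-117276555), where PU.1 scored 23.08 and 6.11, p300 peaks of 6.47 and 5.69 were absent after IL-4 (limma adjusted p = 0.0488).

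Among inflammasome genes, H3K27Ac fell by 0.91 near the DNA sensor gene Aim2 (chr1:173412473-173412691), from 52.2 and 47.8 to 24.8 and 26.4 (limma adjusted p = 0.00534). The lost site at the promoter of P2rx7, an ATP-gated channel (chr5:122643796-122644045, PU.1 7.39 and 6.25), showed no call for any antibody, with RNAPII-pS5 at 70.33 and 45.14 in ctrl and 57.09 and 59.23 after IL-4 and H3K27Ac at 380.3 and 364.3 and then 359.3 and 327. The groups overlapped for RNAPII-pS5 and did not for H3K27Ac (limma adjusted p = 0.443). The S100a11 and 2210018M11Rik promoters likewise gave no call, with RNAPII-pS5 at 72.84 and 47.79 and then 53.39 and 54.83 at S100a11. At the Fc receptor gene Fcgr4 (chr1:171019685-171019906) H3K27Ac fell from 225.9 and 209.9 to 164.9 and 167 (log2 change -0.34, limma adjusted p = 0.0112). In an intron of Ppargc1b, a coactivator induced in alternative activation (chr18:61384170-61384346), p300 rose from no peak and 17.21 to 27.31 and 27.7 (log2 change 1.85, limma adjusted p = 0.0222). The lost sites annotated to Mefv, Lpl, Tlr4, and Il12a lay in L1 elements, and those of Tlr4 and Il12a were 268928 bp or more and 59486 bp from the start sites.

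In the second experiment, the question was how these sites behave with longer IL-4 exposure and with LPS. An RNAPII-pS5 peak overlapped 8.57% and 7.77% of lost sites in ctrl_ctrl, 8.93% and 9.09% in 24hIL4_ctrl, 7.21% and 7.45% in ctrl_1hLPS, and 8.93% and 9.33% in 24hIL4_1hLPS. The 24hIL4_ctrl libraries lay above the ctrl_ctrl libraries, and their lists were also longer, with 21365 and 22149 peaks against 20803 and 19279. The part of list length in this order was not tested. Of 350 lost sites in a tested region, 17 were called lower (4.86%) and 39 higher (11.1%) by limma at an adjusted p of at most 0.05, against 7.08% and 9.7% of all 27609 regions. With any 1 of these libraries left out, 18 to 24 lost sites were called in all, so no direction is read from these counts. After LPS, 53 were lower (15.1%) and 55 higher (15.7%), against 18.9% and 11.6%. With IL-4 before LPS against LPS alone, 28 were lower and 32 higher, against 5.46% and 8.9%, and with any 1 library left out 23 to 31 were called in all. The LPS contrasts share the ctrl_1hLPS libraries, and the contrasts with untreated cells share ctrl_ctrl. An intron site of Irg1, the gene of the itaconate-producing enzyme (chr14:103048902-103049115), had no RNAPII-pS5 peak in ctrl_ctrl or 24hIL4_ctrl, 16.86 and 17.23 after LPS, and 20.18 and 26.41 with both (LPS log2 change 3.75, limma adjusted p = 0.00153). At an intron site of Gpnmb (chr6:49036971-49037186) the scores were 10.78 and 12.79 in ctrl_ctrl, 23.48 and 30.24 in 24hIL4_ctrl, absent after LPS alone, and 17.53 and 14.44 with IL-4 before LPS (log2 change 3.28 against LPS alone, limma adjusted p = 0.00278).

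p65 peaks overlapped 2.64% and 2.68% of lost sites in ctrl_ctrl, 3.65% and 3.08% in 24hIL4_ctrl, 11.2% and 11.1% in ctrl_1hLPS, and 13.3% and 14.5% in 24hIL4_1hLPS. All lists with LPS lay above all lists without it, and the same held at kept sites (34.2% to 39.4% against 17.0% to 19.3%). The lists with LPS were also longer, with 26305 to 38955 peaks against 9556 to 11026. Of 382 lost sites in a tested p65 region, 136 (35.6%) were called higher and 51 (13.4%) lower after LPS by limma at an adjusted p of at most 0.05, against 26.9% and 20.1% of all 37564 regions. The median log2 change after LPS was 0.65 at lost sites, 0.41 at kept sites, and 0.02 at gained sites. With IL-4 before LPS against LPS alone, 72 (18.8%) were higher and 30 lower, against 25.4% and 5.56% of all regions, and the p65 lists of 24hIL4_1hLPS held more peaks (36738 and 38955, against 26305 and 26820). The median log2 change was 0.27 at lost sites and 0.388 over all regions. Without 24hIL4_1hLPS replicate 1 or 2, higher calls no longer outnumbered lower ones, both at lost sites and over all regions. The medians were then 0.252 and 0.106 at lost sites, against 0.232 and 0.182 over all regions. The strongest p65 increase after LPS among lost sites was in a Nckap1l intron (chr15:103477466-103477841), the gene of a haematopoietic actin regulator, with no peak in ctrl_ctrl, 4.55 in a single 24hIL4_ctrl list, 46.33 and 60.95 after LPS, and 65.31 and 75.1 with both (log2 change 4.30, limma adjusted p = 0.00314). At the Calcrl site, p65 scored 6.64 and 13.49 after LPS and had no peak in either 24hIL4_1hLPS list (log2 change -3.12, limma adjusted p = 0.00122), and it was a site where p300 fell at 1 hr of IL-4.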

How the data were processed

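ChIP-seq peak lists of 48 of the 56 libraries were used. RNAPII-pS2 lists of the pretreatment experiment were not used here. Per the labels and methods, the authors aligned reads to mm10 with BWA 0.7.10, handled alignments with SAMtools 0.1.19, called peaks with MACS2 2.0.10 (H3K27Ac with HOMER 4.2 as histone regions), and annotated them with HOMER. No input control is stated, and read depth is unknown, so peaks per list stand for depth. Deposited scores are −log10 of a p or q value, and the deposited H3K27Ac score is a normalized tag signal, as inferred from the values.

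Peaks of an antibody overlapping by at least 1 bp were merged. Regions with a peak in at least 2 of 4 lists were tested on log2 scores, a missing peak set to the antibody's lowest score, and each list centred on regions present in all lists. limma 3.58.1 (R 4.3.3) gave Benjamini-Hochberg adjusted p-values over all regions, and called regions had an adjusted p of at most 0.05. The 8 pretreatment libraries of an antibody were fitted together, with a peak needed in at least 2 lists. A lost site took the overlapping tested region with the highest mean score, which can extend past the site, while shares of sites with a peak were read over the site itself and shares present in 1 group only over whole regions. The fit was tested on simulated data. Replicate numbers did not pair libraries (largest correlation of deviations 0.0598). Libraries are described as biological replicates, and p-values measure the spread between them.

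Members, lists, and the rule for named sites (the 12 highest lower ctrl scores, up to 3 per pathway list, up to 2 per antibody and direction, and the genes with most lost sites) were chosen with earlier results of these data known. The other sites, those where 3 other antibodies were lost, were chosen after their values were seen. Sequences are from RefSeq GRCm38.p6. Windows in untranslated regions were not printed. A site among the strongest is not reported here.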

Additional observations from a re-analysis of the deposited data

How the results depend on the processing

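Of the alternatives tried, these moved a result, and the cause was not tested unless named. A reversal means a change of sign against 0. Where a median reversed, the median over all regions had moved up too. With no centring it was 0.782 for p300. With a floor 4 times as high, to which lower measured scores were raised as well, it was 0.191 for HDAC1, 0.053 for H3K27Ac, and 0.108 for RNAPII-pS5. With peaks required in every list it was 0.0424 for RNAPII-pS5, and without IL-4 replicate 2 it was 0.161 for HDAC2. Lost sites numbered 1482 with a PU.1 score of at least 5 in all 4 lists and 618 with it in ctrl lists alone. With 1 PU.1 list left out, and so fewer lists to satisfy, they numbered 4995 to 13734. With no centring, calls fell to 0 for p300, RNAPII-pS5, and RNAPII-pS2, at lost sites and over all regions. Median changes at lost sites were 0.281 for p300, a reversal, -0.559 for HDAC1, -0.269 for HDAC3, and -0.244 for RNAPII-pS5. With a floor 4 times as high, the medians were -0.563 for p300, 0.18 for HDAC1, 0.053 for H3K27Ac, and 0.0357 for RNAPII-pS5 (the last 3 reversed), -0.335 for HDAC3, and 0.0511 for RNAPII-pS2, with 312 H3K27Ac calls (124 lower, 188 higher) and 19 RNAPII-pS5 calls. With peaks required in every list, medians were -0.496 for p300, -0.0231 for HDAC1, and 0.0162 for RNAPII-pS5, a reversal, and calls were 17 for RNAPII-pS5, 14 after 24 hr of IL-4, 25 for RNAPII-pS5 and 1 for p65 with IL-4 before LPS. With no filter, calls were 88 for p300 and 7 for RNAPII-pS5. At lost sites with both ctrl scores of at least 5, which are fewer, calls were 72 for p300, 52 for H3K27Ac, and 3 for RNAPII-pS2, and medians -0.513 for p300, -0.609 for HDAC1, -0.371 for H3K27Ac, -0.291 for RNAPII-pS5, and 0.393 for RNAPII-pS2. Regions within 500 bp gave a p300 median of -0.346. Sites outside repeats, an alternative chosen after seeing the data, gave -0.365 for p300 and -0.188 for HDAC1, and H3K27Ac summed within 2500 bp, also chosen after seeing the data, gave -0.295.

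With 1 library left out (a lone library then being assumed to vary like the others), calls ranged from 128 to 306 for p300, 135 to 163 for H3K27Ac, 8 to 30 for RNAPII-pS5, 11 to 19 for RNAPII-pS2, 18 to 24 for RNAPII-pS5 after 24 hr of IL-4, 23 to 31 for RNAPII-pS5 and 22 to 95 for p65 with IL-4 before LPS, and were 0 for each HDAC. Medians ranged from -0.506 to -0.298 for p300, -0.302 to -0.207 for HDAC1, -0.648 to 0.0409 for HDAC2 (reversed without IL-4 replicate 2), -0.705 to -0.303 for HDAC3, -0.252 to -0.211 for H3K27Ac, -0.117 to -0.0436 for RNAPII-pS5, and 0.121 to 0.297 for RNAPII-pS2. With the replicate block, calls were 208 for p300, 174 for H3K27Ac, 5 for RNAPII-pS5, 1 for RNAPII-pS2, 46 for RNAPII-pS5 after 24 hr of IL-4, 54 for RNAPII-pS5 and 92 for p65 with IL-4 before LPS, and 0 for each HDAC, and the replicate numbers did not pair the libraries.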
